A study of Mus musculus with 6 samples.

Results

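The endoplasmic reticulum (ER) folding and unfolded protein response genes are a module of 46 mouse genes, chosen by name and matched by gene symbol to the 54532 gene identifiers of the deposited count table. All 46 were found, and all 46 had enough counts to be tested. They were ordered by role into 5 genes of the stress sensors and their signals, 12 chaperones and co-chaperones, 3 genes of the calnexin and calreticulin cycle, 8 disulfide isomerases and relatives, 12 genes of ER-associated degradation (ERAD), and 6 genes of the translocon and of transport out of the ER.

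RNA was sequenced from epididymal white adipose tissue, an abdominal fat depot of male mice, after 16 weeks on a high-fat diet. The 3 knockout libraries came from mice of the genotype PD-1fl/fl Lyz2-Cre, in which Cre recombinase made from the Lyz2 locus removes PD-1, an inhibitory receptor encoded by Pdcd1, from macrophages and other myeloid cells. The 3 control libraries came from littermates of the genotype PD-1fl/fl, which carry the floxed gene without Cre and were on the same diet. The title of the series names ER stress through IRE1α, the product of Ern1, so the question put to these genes is whether their transcripts differed in whole fat of the knockouts. The whole pad was sequenced, cells in which this Cre is not active included, and in such bulk tissue fewer cells of a type and less RNA per cell cannot be told apart. Replicate numbers follow the sample records. No label states that the libraries are of separate animals, and p-values therefore reflect only how much these 6 libraries varied.

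Library totals were 20108185 to 27225533 counts. Control replicate 2, titled HF_7690_eWAT, stood apart, and fold changes are therefore given with and without it. CPM are counts scaled to library size multiplied by a normalisation factor (TMM). That factor was 0.559 in control replicate 2, which raises its CPM, so they are not shares of its counts. The 16 hepatocyte markers summed to 129.7 to 2093 CPM over the knockouts. They summed to 8101 and 9667 CPM in control replicates 1 and 3, and to 259798 CPM in control replicate 2. Nearly all of the sum in control replicate 1, 8089 CPM, was Cyp2e1, which fat also expresses, and so was 1991 CPM of the 2093 CPM in knockout replicate 3. The 14 adipocyte markers summed to 15663 to 45656 CPM over the knockouts, to 63901 and 29587 CPM in control replicates 1 and 3, and to 4752 CPM in control replicate 2. Most of that last sum, 3841 CPM, was Pck1, and Adipoq was at 11.2 CPM there. The tissue label thus went against the markers in control replicate 2, and Alb, the albumin gene of hepatocytes, was also at 3879 CPM in control replicate 3. Alb was at 654 CPM in knockout replicate 2, against 4.02 and 57.6 CPM in knockout replicates 1 and 3 and 7.38 CPM in control replicate 1. Pdcd1 had 19, 19 and 5 counts in the knockouts and 13, 0 and 0 counts in the controls, too few to check the genotypes in tissue that also holds T cells, which express it and in which this Cre is not active.

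The ER folds the proteins that a cell secretes or places in membranes, and the unfolded protein response is the signalling that answers when folding falls behind. Of its membrane sensors, IRE1α splices the mRNA of Xbp1 into the form that encodes an active transcription factor, PERK (Eif2ak3) phosphorylates the translation factor eIF2α, and ATF6 is cut in the Golgi to release a transcription factor. XBP1 and ATF6 raise the transcription of chaperones, disulfide isomerases and ERAD genes, and in fat of obese animals the response is known in both adipocytes and macrophages.

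Many of these genes are known for the ER stress response element (ERSE), a CCAAT box that NF-Y binds and, 9 bases on, a CCACG box that ATF6 and XBP1 bind. RefSeq promoter windows on GRCm38.p6, 300 bases from 250 before to 50 bases after each annotated start, were at hand for 40 of the 46 genes. CCAAT, 9 bases of any kind and CCACG were found in this order on either strand in 9 of these 40 genes (22.5%), against 0.119% of all 32851 windows. For this and the other motifs, the first share is of genes and the second of windows. The 40 genes had 46 windows, and a match in any window of a gene was enough. The 10 sites in these 9 genes are shown because this element is more frequent in the module than among all windows, though 31 of the 40 genes lack it, each read along the motif's own strand with its CCAAT and CCACG in capitals.
Hspa5: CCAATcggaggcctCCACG
Calr: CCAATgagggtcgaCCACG
Derl3: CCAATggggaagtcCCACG
Hsp90b1: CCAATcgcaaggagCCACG
Hsp90b1: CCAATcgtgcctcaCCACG
Canx: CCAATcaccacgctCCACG
Pdia6: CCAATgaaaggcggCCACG
Dnajc3: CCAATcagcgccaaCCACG
Creld2: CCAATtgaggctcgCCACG
Syvn1: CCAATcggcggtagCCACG

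The site of Hspa5 lies 47 to 65 bases before the start and that of Creld2 108 to 126 bases before it. Hsp90b1 has 2 such sites, 194 to 212 and 89 to 107 bases before its start. The related ERSE-II, ATTGG and CCACG with 1 base between them, was found in Herpud1, 42 to 52 bases before the start, and in Dnajb11, 7 to 17 bases after it, or 5% of the 40 genes against 0.0365% of all windows. The XBP1-bound core TGACGTGG was found in Sec24d, Txndc5 and Txndc11, 7.5% against 0.676%. The letters TGATGNAA of the amino acid response element, bound by ATF4, were found in Herpud1 and Txndc5, 5% against 3.97%, so that this share is close to that of all windows. ERSE, ERSE-II and the core share no site in these windows, and a match describes letters, not binding.

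The windows of 3 genes are shown whole, of Hspa5 as the best known stress-induced chaperone and of the members with the most negative and most positive log2 fold changes with all 6 libraries. In Hspa5 (chr2:34771840-34772139, plus strand) capitals mark the CCAAT and CCACG of the ERSE. In Herpud1 (chr8:94386179-94386478, plus strand) they mark the ERSE-II and, read on the opposite strand, the letters bound by ATF4. In Sdf2l1 (chr16:17132334-17132633, minus strand) none of the 4 motifs was found, so the window stands in lower case.
Hspa5: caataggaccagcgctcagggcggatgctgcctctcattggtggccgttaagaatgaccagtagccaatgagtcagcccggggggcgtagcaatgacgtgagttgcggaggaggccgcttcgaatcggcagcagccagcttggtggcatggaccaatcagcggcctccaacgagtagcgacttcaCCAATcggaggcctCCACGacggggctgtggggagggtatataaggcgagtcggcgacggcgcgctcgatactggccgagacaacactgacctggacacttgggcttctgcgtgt
Herpud1: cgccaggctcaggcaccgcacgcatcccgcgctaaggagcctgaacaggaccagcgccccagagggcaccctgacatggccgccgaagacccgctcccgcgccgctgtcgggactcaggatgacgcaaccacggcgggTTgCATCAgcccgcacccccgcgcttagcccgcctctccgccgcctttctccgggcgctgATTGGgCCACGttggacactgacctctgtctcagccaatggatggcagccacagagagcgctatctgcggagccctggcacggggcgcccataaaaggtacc
Sdf2l1: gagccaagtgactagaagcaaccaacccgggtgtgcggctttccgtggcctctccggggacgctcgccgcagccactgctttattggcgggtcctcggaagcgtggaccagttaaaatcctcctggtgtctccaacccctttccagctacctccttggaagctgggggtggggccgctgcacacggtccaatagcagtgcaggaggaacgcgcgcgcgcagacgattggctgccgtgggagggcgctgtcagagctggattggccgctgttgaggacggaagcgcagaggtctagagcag

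No gene of the module passed the test in either direction. With all 6 libraries the edgeR adjusted p was 0.560 to 0.989, and without control replicate 2 it was 0.540 to 0.998. The share of all genes called at an adjusted p of 0.05 was 0% in both fits, of 15928 and 16729 genes, so these counts of 0 do not set the module apart. On simulated counts the edgeR fit of all 6 libraries called none of the changed genes even at large changes. Its counts of 0 thus say nothing of whether genes differed. EdgeR without control replicate 2 and DESeq2 did make calls there, more at larger changes but few at a 2-fold change. When control replicate 2 was dropped, edgeR found 1 of 49 genes changed 2-fold and DESeq2 found 6 of 50. DESeq2 on the full set found 0 of 50. Counts of 0 from these fits therefore say little about changes of 2-fold or less. At an unadjusted p under 0.05, 1 member, Sdf2l1, was higher in the knockouts (4.38% of all genes were) and 0 were lower (4.27%) with all 6 libraries. Without control replicate 2, Sdf2l1, Creld2 and Pdia6 were higher, or 3 members (5.46% of all genes), and 0 were lower (3.5%). DESeq2 with all 6 libraries gave 45 members an adjusted p and called 0 of them, against 3.13% of all genes. It called 0 of 46 members without control replicate 2, against 2.9% of all genes.

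What the module did show was a dependence on 1 control library. Control replicate 2 was the highest of the 6 libraries in 31 of the 46 genes, or 67.4%, against 31.2% of all genes tested. In 18 members, or 39.1%, it was at least 1.5 times the highest of the other 5 libraries, against 18% of all genes. These ranks depend on the TMM scaling, whose factor of 0.559 raises every CPM of control replicate 2. As an unscaled share of counts, the 46 genes made up 0.648% there, below 0.755% and 0.777% in knockout replicates 1 and 2. With control replicate 2, the log2 fold change, knockout over control, was above 0 in 18 of 46 members (39.1%, against 48% of all genes) and the median was -0.16, against -0.03 over all genes. Without it, the log2 fold change was above 0 in 36 of 46 members (78.3%, against 47.1% of all genes) and the median was 0.19, against -0.04 over all genes. The sign changed in 20 members, 19 of them to positive, but how many of all genes changed sign was not counted. With control replicate 2 and 1 further library left out, the number above 0 was 37, 31 and 37 of 46 for knockout replicates 1 to 3, 33 for control replicate 1 and 35 for control replicate 3. Among the 5 remaining libraries, knockout replicates 1 and 2 both lay above the 3 others in 22 members (47.8%, against 20.1% of all genes), and control replicate 1 was the lowest in 24 (52.2%, against 29.6%).

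**Figure D1:**
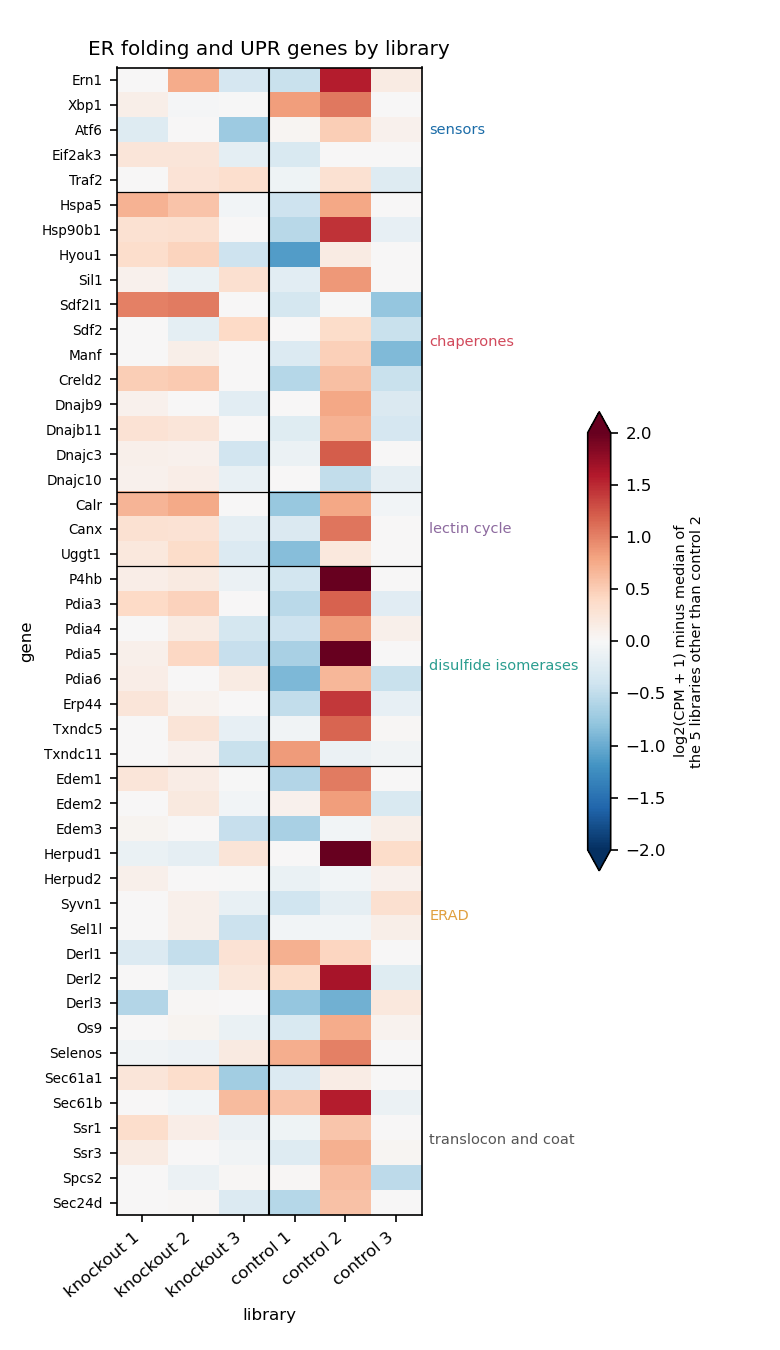
Colour shows the log2(CPM + 1) of each of the 46 genes (rows, grouped by role) in each library (columns, knockouts left of controls) minus the median of the 5 libraries other than control replicate 2, with colours capped at 2 in either direction. The column of control replicate 2 is the darkest red in most rows, with Herpud1, P4hb and Pdia5 beyond the cap, and knockouts 1 and 2 are red over most chaperones.

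**Figure D2:**
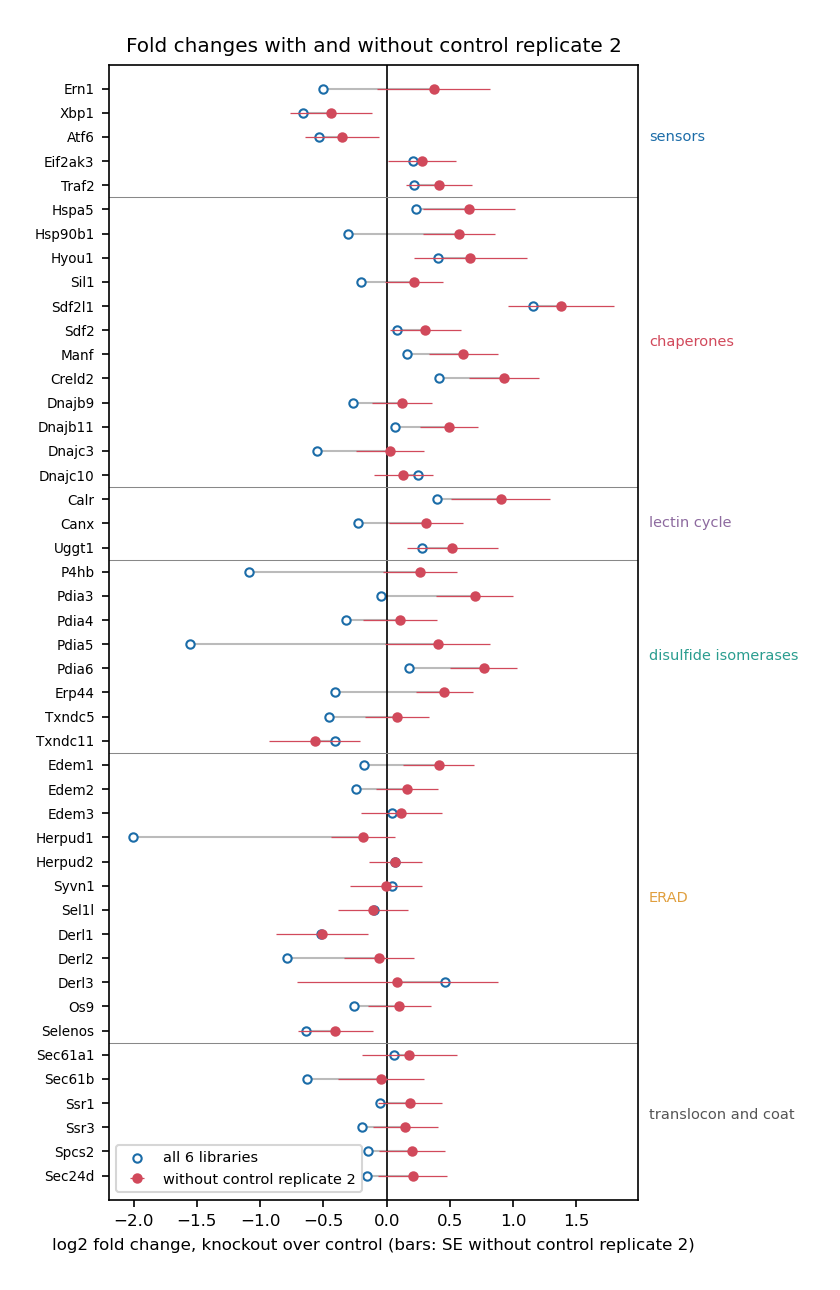
Each row gives the edgeR log2 fold change, knockout over control, of 1 gene with all 6 libraries (open blue circle) and without control replicate 2 (filled red circle, bar for its SE), joined by a grey line. Of the 46 genes, 18 lie above 0 as open circles and 36 as filled ones.

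Among the sensors, Ern1, which encodes IRE1α, was at 11.6, 20.1 and 9.04 CPM in the knockouts, against 8.28, 36.6 and 13.1 CPM in the controls. Control replicate 2 was the highest and control replicate 1 the lowest, so the groups overlapped. The log2 fold change was -0.50 ± 0.63 with all 6 libraries and 0.37 ± 0.45 without control replicate 2, so its direction turned on that library. Xbp1, the target of the splicing activity of IRE1α, was at 195, 175 and 178 CPM in the knockouts and 319, 371 and 178 CPM in the controls. The knockouts lay close together and level with control replicate 3, below control replicates 1 and 2. Its log2 fold change was -0.66 ± 0.40 with all 6 libraries and -0.44 ± 0.32 without control replicate 2. These counts per gene do not tell spliced from unspliced Xbp1, so the activity of IRE1α was not measured.

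Atf6 was the 1 member in which every knockout was below every control, a pattern that 5.61% of all genes showed. It was at 45.04, 54.05 and 32.1 CPM in the knockouts and 55.3, 76.7 and 57.6 CPM in the controls, averaging 43.7 ± 11.04 and 63.2 ± 11.8 CPM (SD, n = 3 each). That gave a log2 fold change of -0.53 ± 0.31 with all 6 libraries and -0.35 ± 0.29 without control replicate 2. Eif2ak3, the gene of PERK, was at 24.8, 25.01 and 18.1 CPM in the knockouts and 16.8, 20.9 and 20.9 CPM in the controls, with overlapping groups and a log2 fold change of 0.21 ± 0.27, or 0.28 ± 0.27 without control replicate 2. Traf2, the adaptor through which IRE1α reaches JNK signalling, was at 11.96, 14.6 and 15.3 CPM in the knockouts and 11.2, 14.9 and 9.90 CPM in the controls. On the log2 scale its fold change was 0.22 ± 0.31 with all 6 libraries and 0.41 ± 0.26 without control replicate 2, which lay among the knockouts. Ern1 and Traf2 are low in this tissue, with medians of 1.27 and 2.09 FPKM over the 5 libraries other than control replicate 2.

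The chaperones lay mostly higher in the knockouts once control replicate 2 was set aside, though none passed the test. With all 6 libraries 8 of 12 had a log2 fold change above 0 and the median was 0.12. All 12 were above 0 without control replicate 2 and the median was 0.53, and with 1 further library left out 11 or 12 of 12 were above 0. Knockout replicates 1 and 2 both lay above the 3 other libraries in 10 of the 12. Knockout replicate 3 lay lower than both, and its mean log2(CPM + 1) over the 12 genes was 6.17, against 6.504 and 6.48 in knockout replicates 1 and 2 and 5.89, 6.79 and 5.92 in control replicates 1 to 3.

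Hspa5 encodes BiP, the Hsp70 of the ER lumen that holds the sensors inactive. The gene lies on GRCm38 at chr2:34771970-34777547 on the plus strand (GENCODE vM21). The RefSeq start of its promoter window lies further downstream, so its ERSE falls within these coordinates. Hspa5 was at 756, 692 and 447 CPM in the knockouts and 348, 796 and 465 CPM in the controls, averaging 631 ± 163 and 537 ± 232 CPM (SD, n = 3 each). The groups overlapped, with knockout replicate 3 below control replicate 3. Knockout over control, the log2 fold change was 0.24 ± 0.51 with all 6 libraries (edgeR adjusted p = 0.931) and 0.65 ± 0.36 without control replicate 2 (adjusted p = 0.632). With control replicate 1, the lowest library, left out instead it was 0.0056, so that library moved the fold change as well.

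Sdf2l1 had the largest positive log2 fold change of the 46 genes in both fits. Its product binds the co-chaperone ERdj3 and helps BiP in folding, and the gene lies at chr16:17130138-17132383 on the minus strand. It was at 38.5, 39.6 and 18.7 CPM in the knockouts and 14.5, 18.5 and 10.6 CPM in the controls, averaging 32.2 ± 11.7 and 14.5 ± 3.98 CPM (SD, n = 3 each). Every knockout was above every control, though knockout replicate 3 and control replicate 2 differed by little. It was the only member of which this held in all 6 libraries, where 9.54% of all genes showed it. The log2 fold change was 1.15 ± 0.40 with all 6 libraries (edgeR adjusted p = 0.560) and 1.38 ± 0.42 without control replicate 2 (adjusted p = 0.540), and leaving out any 1 library gave 0.97 to 1.43. By DESeq2 the adjusted p was 0.280 with all 6 libraries and 0.0673 without control replicate 2, the smallest of the module.

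Creld2, which encodes a stress-induced protein with disulfide isomerase activity, was at 31.2, 31.99 and 21.9 CPM in the knockouts and 14.3, 33.9 and 15.8 CPM in the controls. Control replicate 2 was just above knockout replicates 1 and 2, while all 3 knockouts were above control replicates 1 and 3. That gave a log2 fold change of 0.41 ± 0.42 with all 6 libraries and 0.93 ± 0.28 without control replicate 2 (edgeR adjusted p = 0.804 and 0.540). Dnajc3, the co-chaperone p58IPK that restrains PERK, was at 142, 139.5 and 100.4 CPM in the knockouts and 121, 307 and 132 CPM in the controls. Control replicate 2 was more than 2 times any other library, and the log2 fold change was -0.55 ± 0.47 with it and 0.03 ± 0.27 without it. Hsp90b1, the ER form of Hsp90, was at 364, 369.8 and 296 CPM in the knockouts and 202, 809 and 265 CPM in the controls. Its knockouts lay above control replicates 1 and 3 and below control replicate 2, and its log2 fold change was -0.31 ± 0.62 with all 6 libraries and 0.57 ± 0.29 without control replicate 2. The 7 other chaperones and cofactors ran from -0.27 (Dnajb9, a co-chaperone that represses IRE1α) to 0.40 (Hyou1, the large Hsp70 relative that exchanges nucleotide on BiP) with all 6 libraries. The same 2 genes bounded them without control replicate 2, at 0.12 and 0.66, with Sil1, Sdf2, Manf, Dnajb11 and Dnajc10 between.

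Without control replicate 2, every knockout was above both other controls in 10 of the 46 genes (21.7%), a pattern found in 13.4% of all genes. The 10 were Traf2, the chaperones and folding factors Hsp90b1, Sdf2l1, Manf, Creld2 and Dnajb11, the lectin Calr, and the isomerases Pdia3, Pdia6 and Erp44. Every knockout was below both in 1 gene, Atf6, against 12.3% of all genes.

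**Figure D3:**
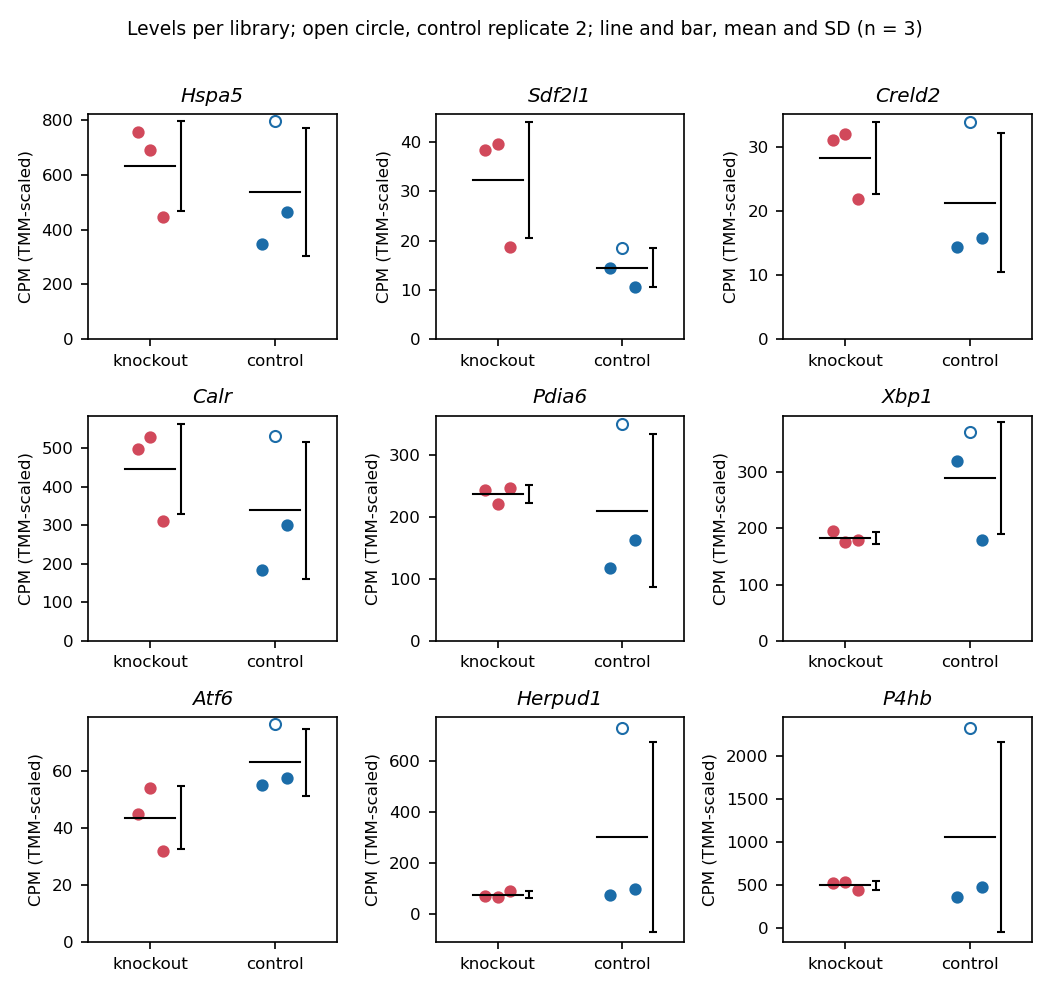
TMM-scaled CPM of 9 genes in the 3 knockout (red) and 3 control (blue) libraries, with control replicate 2 as an open circle and the mean and SD of each group (n = 3) as a line and bar. Sdf2l1, with knockouts higher, and Atf6, with knockouts lower, had no overlap between groups. Herpud1 and P4hb were at 729 and 2335 CPM in control replicate 2, far above their other 5 libraries.

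In the calnexin and calreticulin cycle, which retains sugar-bearing proteins until they are folded, knockout replicates 1 and 2 lay above the 3 libraries other than control replicate 2 in all 3 genes. Calr, the soluble lectin calreticulin, was at 498, 528 and 311 CPM in the knockouts and 184, 531 and 300.3 CPM in the controls. Control replicate 1 was the lowest and control replicate 2 the highest, so the groups overlapped. Knockout over control, the log2 fold change was 0.40 ± 0.53 with all 6 libraries and 0.90 ± 0.39 without control replicate 2 (edgeR adjusted p = 0.866 and 0.563). Canx, the membrane-bound lectin calnexin, was at 282, 279 and 201 CPM in the knockouts and 186, 476 and 227 CPM in the controls. With these levels it had a log2 fold change of -0.22 ± 0.48 with all 6 libraries and 0.31 ± 0.29 without control replicate 2. Uggt1, the glucosyltransferase that tags unfolded glycoproteins for another round, was at 67.7, 75.1 and 47.8 CPM in the knockouts and 31.7, 67.5 and 58.1 CPM in the controls, and the groups overlapped. The fold change of Uggt1 on the log2 scale was 0.28 ± 0.38 with all 6 libraries, 0.52 ± 0.36 without control replicate 2 and 1.017 without control replicates 2 and 3, and control replicate 1 was the lowest library.

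The disulfide isomerases, which form and rearrange the bonds between cysteines, lay on opposite sides of 0 with and without control replicate 2. That library was the highest in 7 of the 8 and at least 1.5 times the highest other library in 6. With all 6 libraries 1 of 8 had a log2 fold change above 0 and the median was -0.41, whereas without control replicate 2 it was 7 of 8 with a median of 0.33. P4hb, the founding disulfide isomerase and the member with the highest median level, 148 FPKM over the other 5 libraries, was at 518, 536 and 437 CPM in the knockouts and 365, 2335 and 472 CPM in the controls. Control replicate 2 was at 4.35 times the highest other library, and the 5 others lay within the range of 365 to 536 CPM. The log2 fold change was -1.09 ± 0.81 with all 6 libraries and 0.26 ± 0.29 without control replicate 2. Pdia5 was at 11.2, 14.1 and 7.22 CPM in the knockouts and 6.25, 78.9 and 10.3 CPM in the controls, with control replicate 2 at 5.61 times the highest other library. Its log2 fold change was -1.55 ± 0.98 with that library and 0.40 ± 0.42 without it.

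Pdia6, which can attenuate IRE1α signalling, was at 244, 221 and 247 CPM in the knockouts and 118, 349.9 and 163 CPM in the controls. The knockouts lay between control replicate 2 above and control replicates 1 and 3 below, without touching either. That gave a log2 fold change of 0.17 ± 0.48 with all 6 libraries and 0.77 ± 0.26 without control replicate 2 (edgeR adjusted p = 0.947 and 0.540). Pdia3, the isomerase that works with calnexin and calreticulin, was at 443, 464 and 336 CPM in the knockouts and 230.5, 764 and 287 CPM in the controls. On the log2 scale its fold change was -0.04 ± 0.57 with all 6 libraries and 0.70 ± 0.30 without control replicate 2. Txndc11, a thioredoxin-domain protein of the ER membrane, was the 1 isomerase below 0 in both fits. It was at 32.03, 34.02 and 23.2 CPM in the knockouts and 58.3, 29.5 and 30.5 CPM in the controls, with control replicate 1 high and the other 5 libraries close together, and its log2 fold change was -0.41 ± 0.37, or -0.57 ± 0.36 without control replicate 2. The remaining isomerases, Pdia4, Erp44 and Txndc5, ran from -0.45 (Txndc5) to -0.32 (Pdia4) with all 6 libraries and from 0.08 (Txndc5) to 0.45 (Erp44) without control replicate 2.

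ERAD, which draws misfolded proteins back through the ER membrane for the proteasome, had 4 of 12 members with a log2 fold change above 0 and a median of -0.21 with all 6 libraries. Without control replicate 2 it was 6 of 12 with a median of 0.03, and knockout replicates 1 and 2 lay above the 3 other libraries in 1 of 12. Herpud1, a stress-induced scaffold of the retrotranslocation complex (chr8:94386438-94395377, plus strand), was at 68.4, 66.4 and 89.9 CPM in the knockouts and 75.01, 729 and 96.6 CPM in the controls. Control replicate 2 was at 7.54 times the highest other library, the largest such ratio of the module, and the knockouts overlapped the 2 other controls. The log2 fold change, the most negative of the 46, was -2.002 ± 0.93 with all 6 libraries (edgeR adjusted p = 0.561) and -0.19 ± 0.25 without control replicate 2 (adjusted p = 0.844).

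Selenos, a selenoprotein that recruits the ATPase p97 to the ER membrane, was at 52.8, 52.1 and 63.6 CPM in the knockouts and 93.4, 113 and 55.8 CPM in the controls. Control replicates 1 and 2 were high and control replicate 3 lay among the knockouts, with a log2 fold change of -0.64 ± 0.34 in all 6 libraries and -0.40 ± 0.29 without control replicate 2. Derl2, a channel-forming derlin, was at 65.5, 59.7 and 76.5 CPM in the knockouts and 85.05, 208 and 55.3 CPM in the controls. With these levels it had a log2 fold change of -0.79 ± 0.53 with all 6 libraries and -0.06 ± 0.28 without control replicate 2, which held the highest value. Derl3 had the lowest median level of the 46, 0.646 FPKM, and 20, 43 and 38 counts in the knockouts and 12, 3 and 51 in the controls, so little can be read from it. Syvn1 and Sel1l, the ubiquitin ligase HRD1 and its partner, had log2 fold changes of 0.04 ± 0.29 and -0.10 ± 0.30 with all 6 libraries, and of -0.0021 ± 0.28 and -0.11 ± 0.27 without control replicate 2. Os9, a lectin that hands substrates to HRD1, lies on chromosome 10, 9.81 Mb from Lyz2, the locus that carries the Cre. It was at 150.3, 157 and 137 CPM in the knockouts and 121, 251 and 158 CPM in the controls, with the knockouts between control replicates 1 and 3 and a log2 fold change of -0.25 ± 0.38, or 0.10 ± 0.25 without control replicate 2. The other 5 ERAD members, the mannosidase-like Edem1, Edem2 and Edem3, Herpud2 and the derlin Derl1, ran from -0.52 (Derl1) to 0.07 (Herpud2) with all 6 libraries. The range was -0.51 (Derl1) to 0.41 (Edem1) without control replicate 2, so Derl1 hardly moved.

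The 6 genes of the translocon and of transport kept to a narrow range once control replicate 2 was left out. Their log2 fold changes spanned -0.63 to 0.06 with all 6 libraries and -0.04 to 0.20 without control replicate 2, which was the highest library in 5 of 6. Sec61b, a subunit of the channel through which new proteins enter the ER, was at 39.7, 38.2 and 61.9 CPM in the knockouts and 59.7, 120.0 and 36.6 CPM in the controls. Its log2 fold change was -0.63 ± 0.49 with all 6 libraries and -0.04 ± 0.34 without control replicate 2. Ssr3, a subunit of the translocon-associated complex, was at 310.0, 277 and 263 CPM in the knockouts and 232, 455 and 284 CPM in the controls, and the groups overlapped. Sec24d, the coat protein that selects cargo for export and whose window holds the XBP1-bound core, was at 80.2, 80.9 and 65.8 CPM in the knockouts and 53.1, 119.7 and 79.6 CPM in the controls. The log2 fold changes of Ssr3 and Sec24d were -0.19 ± 0.41 and -0.15 ± 0.37 with all 6 libraries, and 0.15 ± 0.26 and 0.20 ± 0.27 without control replicate 2. Sec61a1, the pore of the channel, Ssr1 and the signal peptidase subunit Spcs2 ran from -0.15 (Spcs2) to 0.06 (Sec61a1) with all 6 libraries and from 0.18 (Sec61a1) to 0.20 (Spcs2) without control replicate 2.

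As a share of all counts in a library, the 46 genes together made up 0.755%, 0.777% and 0.549% in the knockouts, in order of replicate, and 0.454%, 0.648% and 0.574% in the controls. Knockout replicates 1 and 2 were the highest and control replicate 1 the lowest, while knockout replicate 3 was below control replicates 2 and 3. These shares use no TMM factor, unlike the CPM, in which control replicate 2 was the highest library for most of the 46 genes.

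With control replicate 2 set aside, the libraries with the highest chaperone levels were also those with the most macrophage and fibroblast markers, while control replicate 2 had the highest chaperone mean and the lowest of both marker lists. The 15 macrophage markers summed to 5234, 6221 and 1577 CPM in the knockouts, in order of replicate, and 1353, 544 and 1136 CPM in the controls. With all 6 libraries 14 of the 15 markers had a log2 fold change above 0 (48% of all genes). By edgeR 11 were higher at an unadjusted p under 0.05 (4.38% of all genes). None passed edgeR's adjusted test, which 0% of all genes passed. DESeq2 called 7 of the 15 higher with all 6 libraries, where it called 3.13% of all genes in either direction. Without control replicate 2 it called 8 of them higher, against 2.9% of all genes. The 8 fibroblast markers summed to 1795 to 7335 CPM over the knockouts and 341 to 1878 CPM over the controls. No macrophage or fibroblast marker was at 0 in any library, and 4 of the 16 hepatocyte markers, Apoh, Fgb, Fgg and F2, were at 0 in control replicate 1. The part of these cells in the levels of the 46 genes was not tested.

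**Figure D4:**
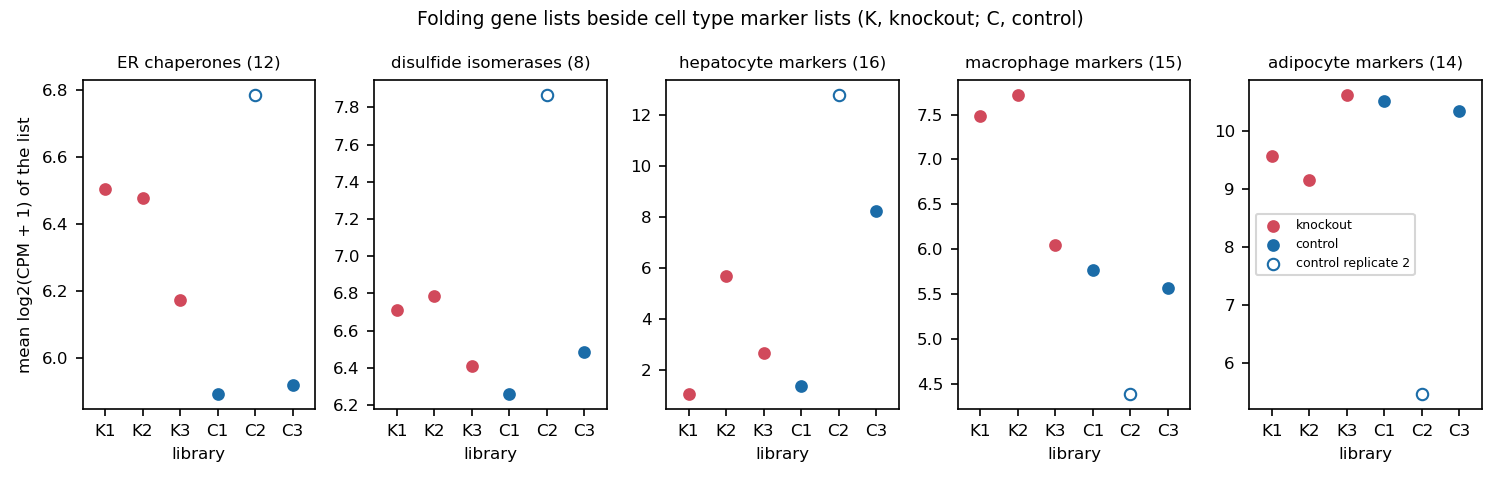
Mean log2(CPM + 1) of the 12 chaperones, the 8 disulfide isomerases and the hepatocyte (16), macrophage (15) and adipocyte (14) marker lists in each library (K, knockout, red; C, control, blue; open circle, control replicate 2), each panel with its own vertical axis. Control replicate 2 is the highest in both folding lists and at 12.78 on the hepatocyte scale, and knockouts 1 and 2 are next highest in both folding lists and highest on the macrophage scale, at 7.48 and 7.72.

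Grouped by the letters in their windows, the 9 genes with an ERSE (Hspa5, Hsp90b1, Dnajc3, Creld2, Calr, Canx, Pdia6, Derl3 and Syvn1) showed a median of 0.17 for the log2 fold change with all 6 libraries, with 6 of 9 above 0. The 31 other genes with a window had a median of -0.19. Without control replicate 2 the medians were 0.57 and 0.16, with 8 of 9 and 24 of 31 above 0. The 9 genes are mostly chaperones and lectins, so the letters and the roles overlap, and Sdf2l1, the largest positive value, is among the 31. These medians are descriptions, and the difference between them was not tested.

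**Figure D5:**
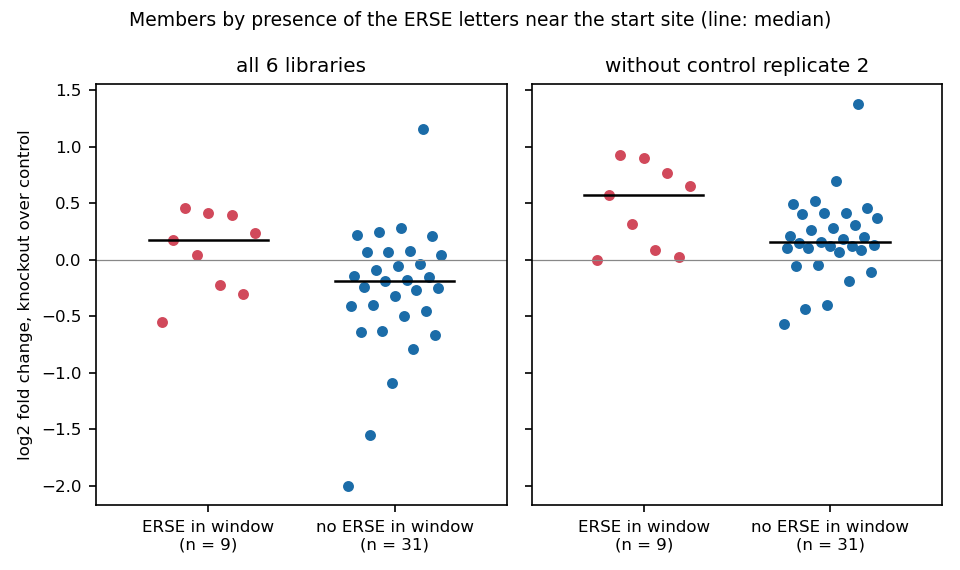
Log2 fold change, knockout over control, of the 9 genes with the ERSE letters in their promoter window (red) and of the 31 without (blue), with all 6 libraries (left) and without control replicate 2 (right), and the median of each set as a black line. The medians were 0.17 and -0.19 with all 6 libraries and 0.57 and 0.16 without control replicate 2.

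Outside the module, 88 further genes of the same pathway were read as 4 lists, of which 85 were tested. None passed edgeR's adjusted test in either direction, which 0% of all genes passed. Of 22 tested genes of the other arms of the response, 3 were higher in the knockouts at an unadjusted p under 0.05 (Wfs1, Atf3 and Bax) and 1 was lower (Creb3l3), where 4.38% and 4.27% of all genes were. Creb3l3, a transcription factor best known in liver, was at 0.850, 4.77 and 0.466 CPM in the knockouts and 0.637, 476 and 18.4 CPM in the controls, with control replicate 2 far above the rest. It passed DESeq2 with all 6 libraries (adjusted p = 0.0080) and not without control replicate 2 (adjusted p = 0.475). Atf3, a stress-induced repressor reached through PERK and through other signals, was at 111, 129 and 31.6 CPM in the knockouts and 4.38, 1.79 and 25.1 CPM in the controls. Every knockout was above every control, and knockout replicate 3 was close to control replicate 3. On the log2 scale its fold change was 3.12 ± 1.09 with all 6 libraries and 2.65 ± 0.95 without control replicate 2, with a DESeq2 adjusted p of 0.057 and 0.0348. Wfs1, the wolframin of the ER membrane, was at 69.6, 95.5 and 29.3 CPM in the knockouts and 9.70, 8.41 and 23.9 CPM in the controls. It had no overlap either, with a log2 fold change of 2.21 ± 0.61 with all 6 libraries and 1.98 ± 0.64 without control replicate 2, and it passed DESeq2 in both (adjusted p = 0.0444 and 0.0459). Both genes followed the macrophage markers in being highest in knockout replicates 1 and 2, and the part of macrophages in them was not tested.

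Neither of the 2 best known genes downstream of PERK passed edgeR's adjusted test, but 0% of all genes did, so this does not set them apart. Ddit3, which encodes the pro-apoptotic factor CHOP, was at 19.5, 18.5 and 18.4 CPM in the knockouts and 15.7, 11.4 and 9.64 CPM in the controls. The knockouts were level with each other and above every control, with a log2 fold change of 0.62 ± 0.30 (edgeR adjusted p = 0.567), or 0.58 ± 0.30 without control replicate 2. Atf4, the transcription factor made when eIF2α is phosphorylated and controlled mainly at translation, was at 95.1, 106 and 119.5 CPM in the knockouts and 161, 142 and 84.00 CPM in the controls. The groups overlapped, with a log2 fold change of -0.27 ± 0.35, or -0.19 ± 0.34 without control replicate 2. In the other lists, a log2 fold change above 0 was found in 7 of 21 further folding genes, 2 of 19 further ERAD genes and 6 of 23 further translocon and glycosylation genes with all 6 libraries, and in 15, 5 and 11 of them without control replicate 2. At an unadjusted p under 0.05, 0 genes of these 3 lists were higher or lower with all 6 libraries. Rnf139, an ERAD ubiquitin ligase, was at 23.4, 19.8 and 21.7 CPM in the knockouts and 30.3, 54.3 and 24.2 CPM in the controls, each knockout below each control, with a log2 fold change of -0.75 ± 0.37 (edgeR adjusted p = 0.573), or -0.33 ± 0.23 without control replicate 2. Ngly1, which strips sugars from retrotranslocated proteins, was at 44.8, 41.2 and 68.5 CPM in the knockouts and 68.98, 86.8 and 61.9 CPM in the controls, and knockout replicate 3 lay among the controls. For Ngly1 the log2 fold change was -0.50 ± 0.32 with all 6 libraries and -0.34 ± 0.28 without control replicate 2.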

How the data were processed

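The authors deposited raw counts per gene and library, which were used for the tests, and FPKM values, which served for levels between genes and for alternatives. Within a library these deposited FPKM values are proportional to the counts of a gene. Between libraries they are not scaled by total counts alone. Relative to total counts and control replicate 1, a count was worth 1.90 times as much in control replicate 2. It was worth 0.829 to 0.921 times as much in the knockouts and control replicate 3. The alternatives on FPKM thus also raise control replicate 2. The submitters' processing notes name featureCounts 1.5.0-p3, StringTie 1.3.3b, HISAT2 2.0.5, fastp and the build mm10. Which annotation and strand setting were used is not given in the sources used here, and reads of overlapping genes may be shared. Exons of 14 members overlap another gene in GENCODE vM21 (GRCm38), at most 16.0% of the exonic bases (Sdf2, with Supt6 on the opposite strand).

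Library totals were 20108185 to 27225533 counts. Pairs of replicates differed by a chi-square of 62.4 to 1235 per degree of freedom, and none was treated as a repeat of another. Genes kept by filterByExpr were tested by the robust quasi-likelihood test of edgeR 4.0.16 in R 4.3.3, with TMM scaling and Benjamini-Hochberg adjustment over all genes tested, threshold 0.05. TMM factors were 0.982 to 1.25, except for 0.559 in control replicate 2. CPM values are TMM-scaled with all 6 libraries, ± marks the SE of a fold change (taken from the F statistic) and otherwise the SD. Alternatives were DESeq2 1.42.0, limma-voom and limma 3.58.1 on log2(FPKM + 1) or log2(FPKM + 0.1), DESeq2's size factors, other filters, and libraries left out. The tests were checked on simulated counts.

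Members and gene lists were chosen with earlier results of these data known. Genes named are Ern1, Xbp1, Atf6, Eif2ak3 and Hspa5, the 3 other members of smallest p in each role, Atf4, Ddit3 and the 2 of smallest p in each further pathway list, any member with an adjusted p under 0.05 in the further fits (there were none), and members with a sequence or position described. Pdia6, Pdia3, Hsp90b1 and the other genes listed as not overlapping without control replicate 2 were named after their values were seen, as were Bax and Creb3l3. Ddit3 has 2 gene identifiers, and the one with counts was used. Promoters are those of RefSeq on GRCm38.p6, and motifs were searched as exact letters on both strands. A further marker list is not reported here.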

Additional observations from a re-analysis of the deposited data

How the results depend on the processing

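Counts of calls depended on the tool. Over all genes, edgeR called 0 in every fit and limma 0, while DESeq2 called 530 with all 6 libraries and 485 without control replicate 2, and 0 members of the module were called under any setting. The median log2 fold change of the module was -0.33 to 0.19 with 1 library left out, positive only without control replicate 2. It was 0.33 without control replicates 2 and 3, 0.26 without control replicate 2 and knockout replicate 3, and 0.22 by limma-voom without control replicate 2. The fits that left out control replicate 2 with a knockout or with control replicate 1, and limma-voom without it, were chosen after seeing the data. No paired analysis was possible. The numbers 1 to 3 used here only name the libraries in record order, and no label states that a knockout and a control are a pair. In the library titles, however, knockout replicate 3 and control replicate 3 have adjacent numbers. The title numbers of knockout replicates 1 and 2 lie close together, as do those of control replicates 1 and 2. What these numbers stand for is not stated, and for replicates 1 and 2 they cannot be told apart from genotype. The cause of these changes was not tested, beyond that they follow from leaving out the named libraries.

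Single genes changed sign mainly with control replicate 2. Leaving out each library in turn gave log2 fold changes of -0.90 to 0.37 for Ern1, -0.78 to 0.025 for Dnajc3, -0.46 to 0.31 for Canx, -2.04 to 0.40 for Pdia5, -1.49 to 0.26 for P4hb, -0.38 to 0.15 for Ssr3, -0.39 to 0.20 for Sec24d, -0.64 to 0.57 for Hsp90b1, -0.34 to 0.70 for Pdia3, -0.73 to 0.45 for Erp44, -0.11 to 0.77 for Pdia6, -0.11 to 0.61 for Manf and -0.11 to 0.50 for Dnajb11. Without control replicates 2 and 3, values were 0.73 for Ern1, 0.089 for Dnajc3, 0.46 for Canx, 0.81 for Pdia5, 0.46 for P4hb, 0.013 for Herpud1, 0.30 for Ssr3, 0.53 for Sec24d, 0.78 for Hsp90b1, 0.86 for Pdia3 and 0.64 for Erp44. DESeq2 and limma-voom without control replicate 2 gave 0.36 and 0.31 for Ern1, 0.025 and 0.0035 for Dnajc3, 0.31 and 0.30 for Canx, 0.40 and 0.39 for Pdia5, 0.26 and 0.26 for P4hb, 0.15 and 0.15 for Ssr3, 0.20 and 0.22 for Sec24d, 0.57 and 0.58 for Hsp90b1, 0.69 and 0.68 for Pdia3, and 0.46 and 0.46 for Erp44. With all 6 libraries Pdia3, near 0, was 0.070 by limma-voom, 0.0054 with no filter on low counts, and 0.14 with either FPKM pseudocount.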

Other observations

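Of the further folding genes, Serpinh1 and P4ha1 had the smallest p. Serpinh1, the collagen chaperone HSP47, was at 785, 627 and 559 CPM in the knockouts and 128, 31.8 and 437 CPM in the controls. Every knockout was above every control, and control replicates 1 and 2 were far below control replicate 3. The log2 fold change was 1.72 ± 0.91 with all 6 libraries and 1.24 ± 0.56 without control replicate 2 (edgeR adjusted p = 0.593 and 0.568). P4ha1, the catalytic subunit of collagen prolyl hydroxylase, whose partner subunit is the product of P4hb, was at 49.2, 40.8 and 27.6 CPM in the knockouts and 19.9, 16.2 and 35.9 CPM in the controls, with overlapping groups and a log2 fold change of 0.71 ± 0.41, or 0.51 ± 0.37 without control replicate 2. Fkbp10, a collagen foldase named after its values were seen, was at 14.7, 29.3 and 13.6 CPM in the knockouts and 10.3, 1.88 and 12.2 CPM in the controls. Control replicate 2, the highest library for P4hb, was the lowest for Serpinh1, P4ha1 and Fkbp10, and its fibroblast markers were also the lowest, at a summed 341 CPM.

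Export and entry genes outside the module held another library-bound value. Sar1b, the small GTPase that starts COPII coats on the ER, was at 65.95, 55.03 and 75.7 CPM in the knockouts and 79.4, 623 and 65.3 CPM in the controls, so that its log2 fold change of -1.96 ± 0.93 became -0.14 ± 0.24 without control replicate 2. Sec61g, a subunit of the entry channel, was at 24.6, 18.8 and 35.6 CPM in the knockouts and 75.2, 64.1 and 20.5 CPM in the controls. Control replicate 3 lay among the knockouts and the 2 other controls above them, with a log2 fold change of -1.01 ± 0.54 (edgeR adjusted p = 0.593), or -0.86 ± 0.57 without control replicate 2.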
